A study of Macaca mulatta with 9 samples.

Results

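CHAC1, ASNS, SLC7A11, XBP1, HERPUD1 and EDEM1 are 6 genes that cells switch on when unfolded protein gathers in the endoplasmic reticulum or when amino acids run short. They were chosen by their measured difference between small antral follicles of monkeys on a Western-style diet and of monkeys on a standard diet, so values of that comparison are given here as a description, without a test. Every probe set annotated with exactly 1 of these symbols was taken, which gave 9 of the 52865 probe sets on the array; the 6 genes are among 10002 genes with a tested probe set. CHAC1, ASNS and HERPUD1 had 1 probe set each, and the other 3 genes had 2 each. In the 26383 probe sets bright enough to be tested, 8 of the 9 were included.

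Small antral follicles (SAFs) are follicles of the ovary at the stage when a fluid-filled cavity appears; here they came from young adult female rhesus macaques in the early follicular phase, at or near menses. The 3 groups were WSD+T females, which ate a Western-style diet and had chronically raised androgen (testosterone), WSD females, which ate that diet alone, and control females, which ate a standard diet. Each group had 3 arrays, labelled as biological replicates, and each array held RNA of a pool of SAFs from the ovary of 1 female (the labels give 3.7 ± 0.3 SAFs for an ovary, without naming the error). Granulosa cells, wall and cumulus-oocyte complex went into the lysate together. The study asks what the diet, with and without androgen, does to these follicles; the dose and length of treatment were not given in the sources used here.

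In the unfolded protein response, the sensor PERK (EIF2AK3) and the amino acid sensor GCN2 both slow protein synthesis by phosphorylating eIF2 alpha and so raise the transcription factor ATF4, which drives genes of amino acid uptake and synthesis. A separate sensor, IRE1 (ERN1), splices the XBP1 transcript into the form that encodes an active transcription factor, which drives genes of protein folding and of disposal of misfolded protein. In growing follicles, granulosa cells are secretory cells that make large amounts of inhibins and extracellular proteins. CHAC1, ASNS and SLC7A11 are known targets of ATF4, EDEM1 is a known target of XBP1, and HERPUD1 is induced through several arms of the response.

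Signals below are MAS5 intensities, a linear and unitless measure of brightness which the authors scaled to the same trimmed mean on all arrays. Differences are given as log2 of (signal + 16), which understates changes of dim probe sets, and a signal of 21.2 marks the lower limit for testing by the mean over arrays. Probe sets of different genes differ in brightness for reasons other than RNA level, so levels are compared only within a probe set. An adjusted p is from limma over all 26383 probe sets with Benjamini-Hochberg adjustment and a threshold of 0.05. Since a sample is a mixture of cells, a higher signal cannot be told apart as more cells of a type or more RNA per cell.

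Before the genes themselves, some arrays stood apart. The 3 WSD+T arrays were far more alike than those of the other groups: their root mean square differences over all tested probe sets were 0.211 to 0.319 on the log2 scale, against 0.604 to 1.04 among WSD arrays and 0.526 to 0.591 among control arrays. WSD+T replicates 1 and 3 were the closest pair of arrays of all, at 0.211. WSD replicate 3 had the lowest summed signal of macrophage markers of all 9 arrays. For some results, values without 1 of these arrays are also given below.

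**Figure D1:**
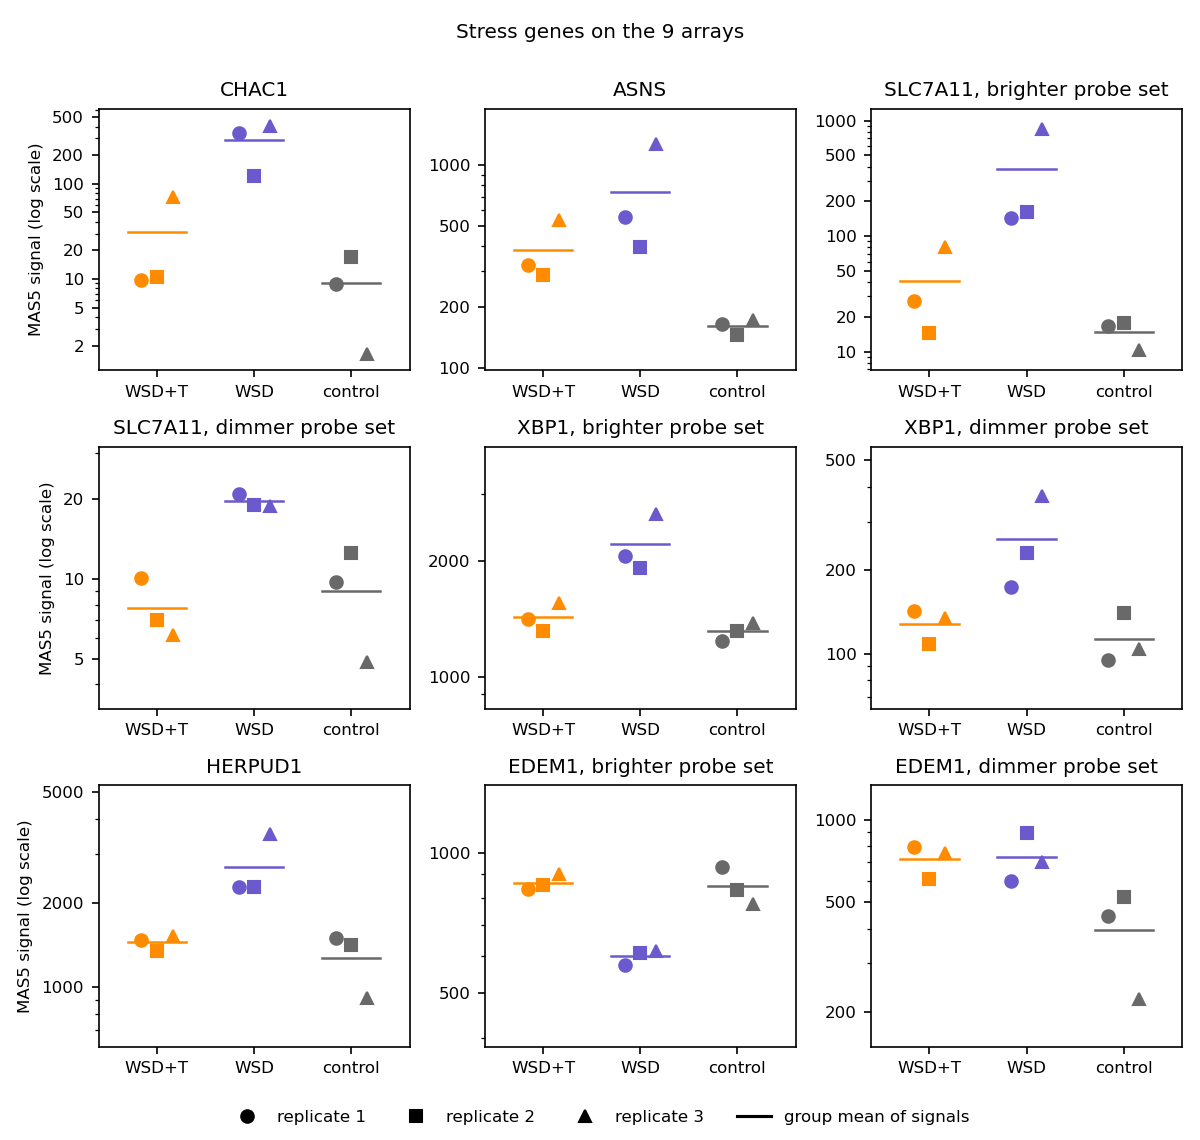
MAS5 signal (log scale, vertical axis) of the 9 probe sets on the 9 arrays, with WSD+T on the left, WSD in the middle and control on the right. Points are single arrays, marked by replicate, and lines are group means; CHAC1 stood at 122 or more on every WSD array and at 16.9 or less on every control array.

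CHAC1 breaks down glutathione, the main thiol antioxidant of the cell. Its signal was 9.79, 10.4 and 73.1 in WSD+T SAFs, 343, 122 and 410.0 in WSD SAFs and 8.76, 16.9 and 1.64 in control SAFs. All 3 WSD arrays were above all others, and WSD+T replicate 3 lay between the WSD arrays and the rest. The means were 31.1 ± 36.3 in WSD+T, 292 ± 151 in WSD and 9.11 ± 7.65 in control (SD, n = 3 each). WSD exceeded control by 3.51 (SE 0.57) on the log2 scale, a size that depends on the pseudocount, since every control signal was under the limit of 21.2. With a pseudocount of 1 or 64 in place of 16, that difference was 5.07 or 2.18.

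ASNS makes asparagine from aspartate and glutamine. It had signals of 324, 288 and 537 in WSD+T SAFs, 556, 394 and 1268 in WSD SAFs and 165, 146 and 172 in control SAFs. Among the 6 genes it was the only one whose main probe set was higher on all 3 WSD+T arrays than on all 3 control arrays, while WSD+T and WSD overlapped. Its control arrays were tightly grouped, at 161 ± 13.8, against 383 ± 135 in WSD+T and 739 ± 465 in WSD (SD, n = 3 each). The WSD minus control difference was 1.92 (SE 0.40), and without WSD replicate 3 it was 1.45.

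SLC7A11 is the transport subunit of the exchanger that brings in cystine, the precursor of cysteine for glutathione. The brighter of its probe sets gave 27.4, 14.6 and 79.9 in WSD+T SAFs, 144, 162 and 843 in WSD SAFs and 16.5, 17.5 and 10.3 in control SAFs. The WSD arrays did not overlap with either other group, and replicate 3 was the highest array both in WSD+T and in WSD. WSD exceeded control by 3.25 (SE 0.64), or by 2.46 without WSD replicate 3. The dimmer probe set stayed below the limit for testing on all arrays. It gave 10.1, 6.99 and 6.14 in WSD+T SAFs, 21.0, 19.0 and 18.9 in WSD SAFs and 9.73, 12.5 and 4.85 in control SAFs, so here too the WSD arrays were the 3 highest, without the extra height of replicate 3.

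XBP1 encodes the transcription factor that IRE1 splicing activates; the array gives its total signal, and the spliced form was not measured. The brighter probe set had 1413, 1315 and 1560.2 in WSD+T SAFs, 2066, 1923 and 2655 in WSD SAFs and 1237, 1317 and 1382 in control SAFs. The WSD arrays again stood above the other 6, and WSD+T and control overlapped. The dimmer probe set gave 143, 109 and 134 in WSD+T SAFs, 174, 231 and 372 in WSD SAFs and 95.0, 141 and 104 in control SAFs, with the same order of groups. WSD minus control was 0.74 (SE 0.16) for the brighter and 1.04 (SE 0.26) for the dimmer probe set. Without WSD replicate 3 the brighter one gave 0.60.

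HERPUD1 is a membrane protein that helps hand misfolded proteins from the endoplasmic reticulum to the proteasome. Its signals were 1479, 1351 and 1529 in WSD+T SAFs, 2287, 2295 and 3530.3 in WSD SAFs and 1495, 1418 and 917 in control SAFs. The lowest WSD array exceeded the highest array of either other group. Control replicate 3 was well below its group, and the WSD minus control difference was 1.07 (SE 0.24), or 0.86 without that array and 0.87 without WSD replicate 3.

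EDEM1 marks misfolded glycoproteins for disposal, and its 2 probe sets gave opposite pictures. The brighter one had 836, 852 and 901 in WSD+T SAFs, 575, 611 and 617 in WSD SAFs and 932, 834 and 777 in control SAFs. All 3 WSD arrays were lower than every other array, with a WSD minus control difference of -0.48 (SE 0.13). The dimmer one had 796, 608 and 757 in WSD+T SAFs, 599, 891 and 702 in WSD SAFs and 444, 525 and 223 in control SAFs. On this probe set WSD was higher than control by 0.92 (SE 0.30), with no overlap; the WSD+T arrays were also all above the control arrays. The difference between the probe sets was not tested, and which transcripts each detects was not analysed here. A direction for EDEM1 as a gene is therefore not given.

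For the comparison that chose the genes, all 8 tested probe sets showed no overlap between WSD and control, 7 higher and 1 lower. Over all 26383 tested probe sets, 30.8% had no overlap in that comparison, and 14.5% passed the adjusted threshold. Since the choice used this contrast, nothing is read from the count.

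**Figure D2:**
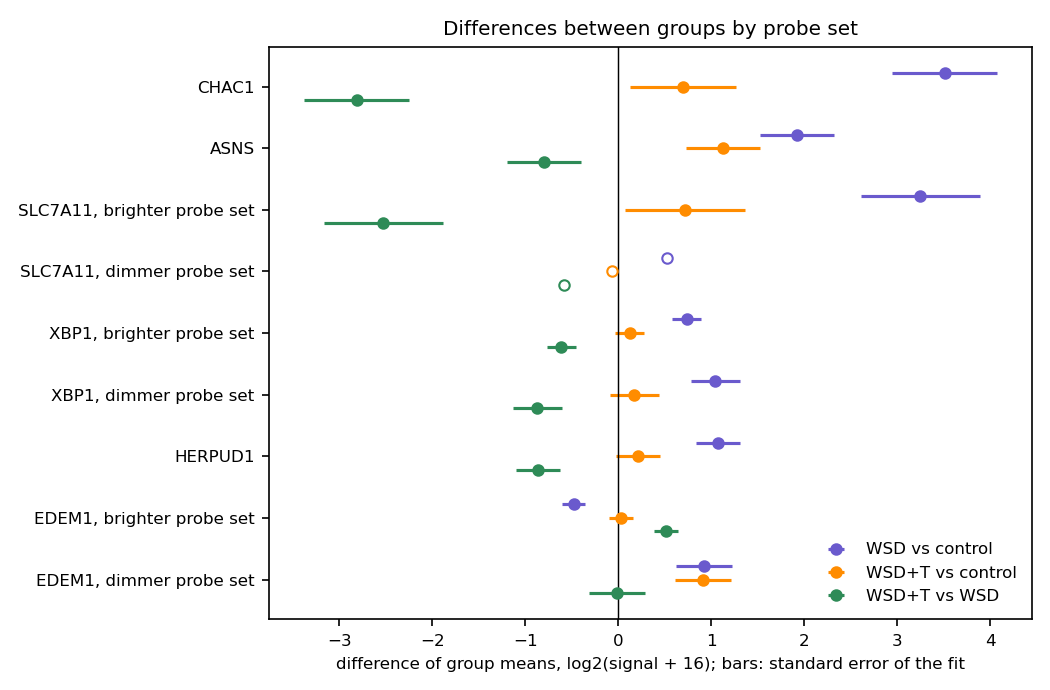
Differences of group means on the log2(signal + 16) scale (horizontal axis) for the 9 probe sets, with bars of 1 standard error from the fit; open points belong to the dimmer SLC7A11 probe set, which was not tested. The WSD+T vs WSD point lies at -2.81 for CHAC1 and at -0.01 for the dimmer EDEM1 probe set, the one farthest from 0 and the one nearest to it.

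When WSD+T was set against control, no gene passed the limma threshold (0 of 6 genes, 0 of 8 tested probe sets), where 1.97% of all tested probe sets and 2.35% of genes did. At an unadjusted threshold of 0.05 on p, 1 of the 6 genes passed, ASNS, where 20.3% of all genes did. The groups did not overlap for 2 of 8 tested probe sets, ASNS and the dimmer EDEM1 probe set, both higher in WSD+T, against 36.8% of all tested probe sets. These counts, and the values of single genes that follow, share the control arrays with the comparison that chose the genes. CHAC1 is included in these counts, but it reached the limit for testing only through its WSD signals, so nothing is read from its test here.

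For ASNS, WSD+T exceeded control by 1.12 (SE 0.40, 95% interval 0.22 to 2.03), with an adjusted p = 0.179. ASNS passed in the fit without WSD replicate 3 (adjusted p = 0.0367), where the shared estimate of the spread no longer includes that array. The dimmer EDEM1 probe set had 0.91 (SE 0.30, 95% interval 0.22 to 1.59, adjusted p = 0.158). For CHAC1, given as a description only, the difference was 0.69, but it was 0.10 without WSD+T replicate 3. SLC7A11 was alike, with 0.72 (95% interval -0.74 to 2.17, adjusted p = 0.584) and 0.25 without that array. XBP1 had 0.12, HERPUD1 0.21 and the brighter EDEM1 probe set 0.03, with adjusted p = 0.728, 0.669 and 0.931. The interval is wide for SLC7A11, so a sizeable difference from control cannot be told from none.

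WSD+T and WSD share the diet and differ by the androgen. The WSD arrays are among those that chose the genes, so differences from them are not independent of the choice and are given as a description, without a test. CHAC1 was lower on every WSD+T array than on any WSD array, by 2.81 on the log2 scale (difference -2.81, SE 0.57). It reached the limit for testing through its WSD signals, since 5 of the other 6 arrays were under 21.2, and it fell short of that limit in a fit to WSD+T and control alone. The fit over all probe sets counted 1 of the 8 tested probe sets past its threshold, CHAC1, lower in WSD+T. Over all tested probe sets, 2.99% passed in either direction and 0.948% passed as lower, and nothing is read from the count of 1. Of the 9 fits that left out an array, CHAC1 passed only in the one without WSD replicate 2, where XBP1 passed too.

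SLC7A11 had a WSD+T minus WSD difference of -2.53 (SE 0.64), or -1.75 without WSD replicate 3, with no overlap. XBP1 had -0.62 on the brighter and -0.87 on the dimmer probe set, HERPUD1 had -0.86, and all 3 probe sets were lower on every WSD+T array than on every WSD array. ASNS had -0.80 (SE 0.40), or -0.33 without WSD replicate 3, and its groups overlapped. The brighter EDEM1 probe set was higher in WSD+T by 0.51, without overlap, and the dimmer one differed by -0.01. Of the 8 tested probe sets, 6 showed no overlap between WSD+T and WSD, 5 lower and 1 higher, where 28.5% of all tested probe sets did, and this count too follows in part from the choice of the genes.

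**Figure D3:**
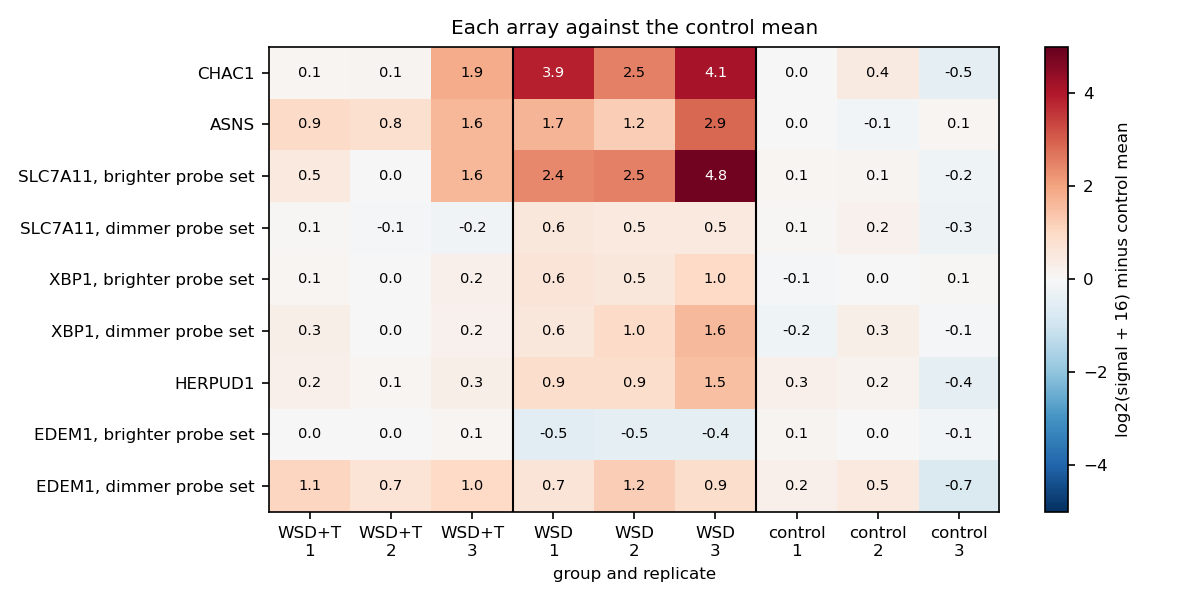
Log2(signal + 16) of each array minus the control mean of the same probe set, with the probe sets in rows and the arrays in columns, WSD+T left, WSD in the middle and control right. WSD+T replicate 3 reached 1.9 for CHAC1 and 1.6 for ASNS and the brighter SLC7A11 probe set, well above the other WSD+T arrays. WSD replicate 3 had the highest values of all for CHAC1, ASNS, the brighter SLC7A11 probe set, XBP1 and HERPUD1.

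The spread among the WSD+T arrays, which were not part of the comparison that chose the genes, was uneven. WSD+T replicate 3 exceeded the higher of the other WSD+T arrays by 1.75 on the log2 scale for CHAC1. This was the largest such gap among all 26383 tested probe sets. CHAC1 is among these only through its WSD signals, so nothing is read from that rank. Probe sets too dim to be tested were not ranked here. The brighter SLC7A11 probe set had a gap of 1.14, which 8 tested probe sets reached or exceeded, or 0.0303%, CHAC1 and SLC7A11 included. The dimmer SLC7A11 probe set did not share it: WSD+T replicate 3 was the lowest there, with a gap of -0.24 that 76.4% of probe sets reached. ASNS had a gap of 0.70, reached by 38 probe sets or 0.144%. The brighter probe set of XBP1 (0.14, reached by 10.6%), HERPUD1 (0.05, reached by 22.4%) and the brighter probe set of EDEM1 (0.08, reached by 17.5%) had smaller gaps on that array.

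Of the 8 probe sets at or above the SLC7A11 gap, 5 had a gene symbol. The others named were HAS2, which makes hyaluronan, and NFATC2, a calcium-responsive transcription factor, with 2 probe sets; they were chosen after their values were seen. HAS2 had 87.9, 56.4 and 307 in WSD+T SAFs, 1213, 284 and 702 in WSD SAFs and 145, 98.5 and 26.5 in control SAFs. That replicate 3 was the highest WSD+T array follows from how these genes were picked. Over the whole profile, WSD+T replicates 1 and 3 were the closest pair of arrays.

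Gaps among the WSD arrays feed the differences that chose the genes and are only described. WSD replicate 3 exceeded the higher of the other WSD arrays by 2.27 for the brighter SLC7A11 probe set and by 1.17 for ASNS, against 0.25 for CHAC1, 0.36 for the brighter XBP1 probe set and 0.62 for HERPUD1. Over all tested probe sets the mean variance within groups was 0.0411 in WSD+T, 0.330 in WSD and 0.152 in control. The SD on the log2 scale of CHAC1 was 1.02 in WSD+T, 0.88 in WSD and 0.45 in control.

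To see whether other genes of these pathways moved, 4 lists without the 6 genes were counted. They held 110 genes, of which 69 had a probe set of that symbol and 61 were tested. The shares below are of tested genes only. Each gene was taken by its brightest tested probe set, and for some genes only a dimmer probe set passed, which is not counted. In WSD vs control these were higher for CEBPG (1.18, adjusted p = 0.00507), DNAJB11 (0.66, adjusted p = 0.0224) and NFE2L2 (0.69 and 0.75, adjusted p = 0.0225 and 0.0144). In WSD+T vs WSD they were lower for CEBPG (-0.95, adjusted p = 0.0309), DERL1 (-0.69, adjusted p = 0.0376) and GCLC (-0.75, adjusted p = 0.0333). In WSD vs control 8 rose (13.1%) and 2 fell (3.28%), or 16.4% in all, where 15.4% of all genes were called, 4.74% higher and 10.7% lower. The share called in all was near that of all genes. The lists, like the 6 genes, were chosen with earlier results of these data known, so their shares are given as a description.

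Among the ATF4-type genes other than the 6 (amino acid uptake, synthesis, tRNA charging and feedback), 22 were tested and 5 rose in WSD vs control (22.7%) while none fell, where 4.74% of all genes were called higher and 10.7% lower. Their median difference was 0.43, against -0.08 over all genes. Since the choice of the list was not independent of these data, nothing is read from these shares. DDIT4, an inhibitor of mTORC1, had 995, 939 and 1225 in WSD+T SAFs, 1384, 1497 and 1549 in WSD SAFs and 761, 771 and 934 in control SAFs, and rose by 0.84 in WSD vs control (adjusted p = 0.0114). SLC1A5, a glutamine transporter, had 51.1, 71.6 and 87.5 in WSD+T SAFs, 173, 154 and 263 in WSD SAFs and 92.0, 76.0 and 55.8 in control SAFs. It rose by 1.21 in WSD vs control (adjusted p = 0.0168) and fell by 1.29 in WSD+T vs WSD (difference -1.29, adjusted p = 0.0382); the second call held in 3 of the 9 fits that left out an array, with adjusted p = 0.162 at most. The glycyl-tRNA synthetase GARS1 (0.83, adjusted p = 0.0482), the tryptophanyl-tRNA synthetase WARS1 (0.53, adjusted p = 0.0446) and the stress protein NUPR1 (0.69, adjusted p = 0.0408) also rose in WSD vs control.

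The count of 5 was 1 without control replicate 2, 2 without any one of the WSD+T arrays or without control replicate 3, and 3 without WSD replicate 2 or control replicate 1, while without WSD replicate 3 it was 4 higher and 2 lower. With array weights per group or a fit to the 2 groups alone, no gene of the list was called, and with a replicate block 2 were. DDIT4 passed in all 9 fits that left out an array, with adjusted p = 0.0423 at most, but not with array weights (adjusted p = 0.0667) or in the 2-group fit (adjusted p = 0.051). For WSD vs control, SLC1A5 failed without control replicate 2 (adjusted p = 0.0517) and control replicate 3 (0.0566), and GARS1, WARS1 and NUPR1 passed in 2, 1 and 2 of the 9.

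ATF4 itself had 2702, 3077 and 2871 in WSD+T SAFs, 3838, 3497 and 3982 in WSD SAFs and 2539, 2247 and 3337 in control SAFs. The WSD arrays were the 3 highest, with a WSD minus control difference of 0.49 (adjusted p = 0.083), which did not pass. DDIT3, the ATF4 partner known as CHOP, had 265, 290.0 and 433 in WSD+T SAFs, 705, 566 and 1181 in WSD SAFs and 730, 288 and 395 in control SAFs. Control replicate 1 was as high as the WSD arrays, and no comparison passed (0.81 in WSD vs control, adjusted p = 0.183; -1.23 in WSD+T vs WSD, adjusted p = 0.11). ATF3 ranged from 283 to 532 in WSD+T, 443 to 1752 in WSD and 338 to 1745 in control, and no comparison passed (0.18 in WSD vs control, adjusted p = 0.871).

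TRIB3, a pseudokinase that restrains ATF4, was too dim to be tested. Its brighter probe set had 4.10, 0.683 and 33.5 in WSD+T SAFs, 62.4, 32.7 and 107 in WSD SAFs and 0.798, 0.980 and 0.988 in control SAFs. WSD+T replicate 3 lay at the lower end of the WSD arrays, and the other WSD+T arrays were far below it. The second TRIB3 probe set ran from 1.57 to 13.7 over all arrays without that pattern.

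Set against control, WSD+T had 1 called gene in this list of 22 (4.55%), ATF5, another ATF4-type transcription factor, where 0.62% of all genes were called higher. ATF5 had 539, 513 and 468 in WSD+T SAFs, 352, 439 and 352 in WSD SAFs and 295, 307 and 315 in control SAFs, and rose by 0.70 in WSD+T vs control (adjusted p = 0.044). It passed in 2 of the 9 fits that left out an array, those without WSD replicate 2 or WSD replicate 3, and its other tested probe sets had 0.17 and 0.29 and did not pass. The median of the list was -0.03 in WSD+T vs control and -0.34 in WSD+T vs WSD, against -0.01 and 0.09 over all genes.

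In the endoplasmic reticulum list, of folding and disposal genes, 1 of 23 tested genes rose in WSD vs control, or 4.35%, close to the 4.74% of all genes called higher, and none fell. It was SELENOS, a selenoprotein of the machinery that extracts misfolded protein, with 814, 851 and 868 in WSD+T SAFs, 1202, 1358 and 1325 in WSD SAFs and 631, 708 and 694 in control SAFs. SELENOS rose by 0.92 in WSD vs control (adjusted p = 0.00449; 0.0172 at most in the 9 fits that left out an array). Between WSD+T and WSD it fell by 0.61 (difference -0.61, adjusted p = 0.0428), a call that held in 2 of those 9 fits. No gene of the list was called in WSD+T vs control by limma, where 2.35% of all genes were, and 1 of 23 passed at an unadjusted threshold of 0.05 on p, where 20.3% of all genes did.

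Over all 4 lists, 2 of 61 genes were called in WSD+T vs WSD, both lower (3.28%), against 2.85% of all genes in either direction and 0.79% lower. The list of sensors held kinases, proteases, translation factors and transcription factors of stress responses, with NFE2L2 and KEAP1 also included. In it, 2 of 10 tested genes fell in WSD vs control (20%). Over all genes 10.7% were called lower. None of the 10 rose by its brightest probe set, but dimmer probe sets of NFE2L2 did. MBTPS2, the protease that frees ATF6, fell by 1.0 (difference -1.0, adjusted p = 0.00764), with signals of 412, 373 and 363 in WSD+T SAFs, 223, 216 and 247 in WSD SAFs and 484, 563 and 387 in control SAFs. Its dimmer probe set had -0.24 (adjusted p = 0.648) and did not pass. EIF2B3, a subunit of the eIF2B factor that eIF2 phosphorylation blocks, fell by 0.62 in WSD vs control (difference -0.62, adjusted p = 0.018) and failed without control replicate 3 (adjusted p = 0.0535), with array weights (0.0754), in the 2-group fit (0.0829) and with median centring (0.0769). EIF2AK3 had 0.02 (adjusted p = 0.968), and ERN1 was too dim to be tested, at 12.2 to 13.0 in WSD+T, 15.8 to 19.3 in WSD and 12.1 to 15.9 in control. No sensor gene was called by limma in WSD+T vs control or in WSD+T vs WSD, with 2 and 4 of 10 past an unadjusted threshold of 0.05 on p, where 20.3% and 20.7% of all genes were.

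In the glutathione list, 2 of 6 tested genes rose in WSD vs control (33.3%), where 4.74% of all genes were called higher. SRXN1, which restores oxidised peroxiredoxins, had 383, 390 and 403 in WSD+T SAFs, 733, 834 and 501 in WSD SAFs and 194, 311 and 323 in control SAFs, and rose by 1.27 (adjusted p = 0.0122). GCLM, the regulatory subunit of the enzyme that begins glutathione synthesis, rose by 0.70 (adjusted p = 0.0327) and passed in 3 of the 9 fits that left out an array, while SRXN1 passed in all 9 but not in the 2-group fit (adjusted p = 0.0608). By brightest probe sets the list had no call by limma in WSD+T vs control or in WSD+T vs WSD. At an unadjusted threshold of 0.05 on p, 2 and 3 of 6 genes passed, where 20.3% and 20.7% of all genes did. A dimmer probe set of GCLC was called lower in WSD+T vs WSD (-0.75, adjusted p = 0.0333), and its other probe sets did not pass. HSPA5, DNAJB9 and SLC3A2, other well-known members of these responses, were also to be reported. They were not among the list genes with a probe set of that symbol, so no value is given.

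**Figure D4:**
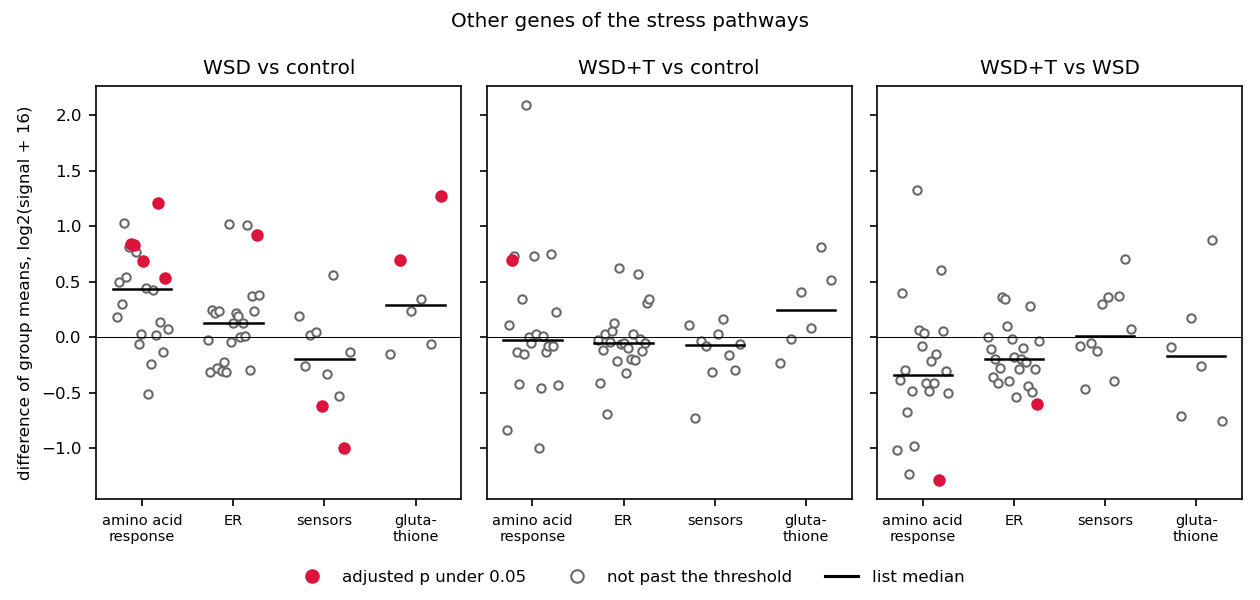
Difference of group means on the log2(signal + 16) scale (vertical axis) for the 61 tested genes of the amino acid response, endoplasmic reticulum (ER), sensor and glutathione lists, with 1 panel for each comparison. Filled points passed an adjusted p of 0.05 and bars are list medians; the amino acid response list has 5 filled points above 0 in WSD vs control.

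Markers of cell types varied between arrays, and their part in the results was not tested. The 10 macrophage and myeloid markers on the array, all of them tested, summed to 17369 to 19768 in WSD+T, to 18388, 26648 and 939 in WSD replicates 1, 2 and 3, and to 11779.7, 1939.7 and 2444 in control; no macrophage marker was at 0 and none was called in any comparison. The 9 granulosa markers on the array summed to 9648 to 11014 in WSD+T, 7679 to 12855 in WSD and 13285 to 17630 in control. Among these, 2 were called lower in WSD vs control and in WSD+T vs control, and 1 was called higher in WSD vs control. The 7 oocyte markers summed to 1189.6 to 1362 in WSD+T, 998 to 1490 in WSD and 506 to 1067 in control, and 1 was called higher in WSD vs control and 1 in WSD+T vs control. The 5 theca markers summed to 2984 to 3097 in WSD+T, 3110 to 4927 in WSD and 3947 to 5020.0 in control. Of these, 3 were called lower in WSD vs control, 2 in WSD+T vs control and 1 in WSD+T vs WSD. The 5 stroma markers summed to 6969 to 8412 in WSD+T, 4801 to 8079.8 in WSD and 6911 to 7741 in control, with 1 called lower in WSD vs control and 1 higher in WSD+T vs WSD. The 7 endothelial markers summed to 1904 to 2186 in WSD+T, 478 to 3608 in WSD and 1023 to 1580.1 in control, and none was called. The 6 markers of plasma and B cells (plasma cells are known to depend on XBP1) summed to 125 to 149 in WSD+T, 36.5 to 125 in WSD and 50.2 to 93.3 in control, and 3 of them were under a signal of 21.2 on every array.

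WSD replicate 3, the array with the lowest macrophage sum, had the highest signals of CHAC1, ASNS, the brighter SLC7A11 probe set, XBP1 and HERPUD1, together with a granulosa sum of 12718.

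**Figure D5:**
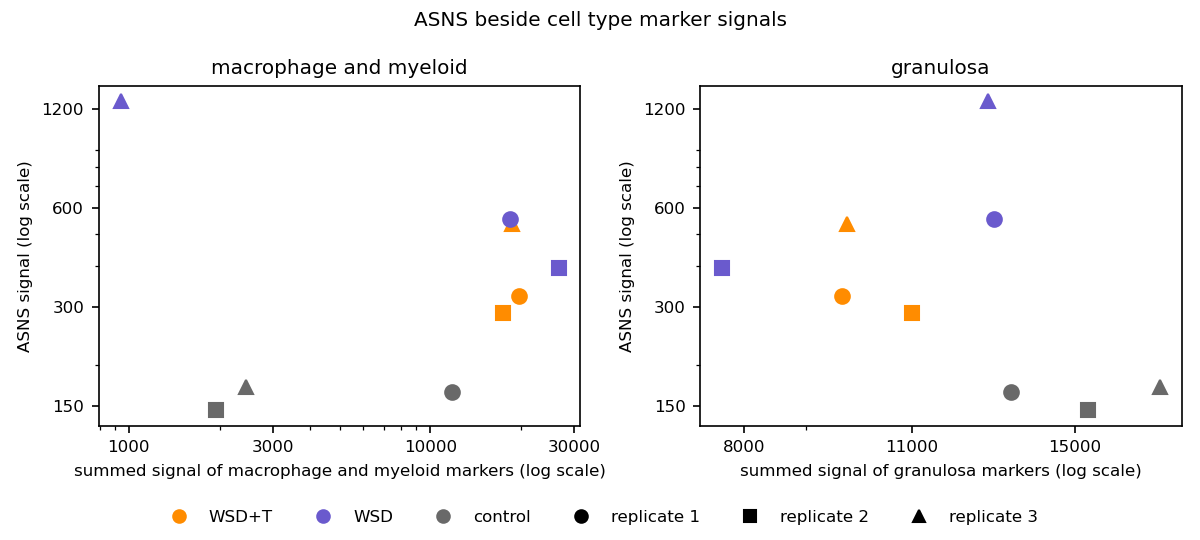
ASNS signal (vertical, log scale) against the summed signal of macrophage and myeloid markers (left) and of granulosa markers (right), both on log scales, for the 9 arrays by group and replicate. WSD replicate 3 combines the highest ASNS signal, 1268, with the lowest macrophage sum, 939.

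By Pearson correlation over the 9 arrays on the log2(signal + 16) scale, the genes most like each of the 6 were picked among 9996 others; since the arrays fall into groups, shared group differences raise such values, and no p is given. For CHAC1 these were CAPN15, AFF4 and SPRED2 (r = 0.97 each). For ASNS they were NCS1 (0.98), MMP3 (0.97) and FRMD6 (0.95), where NCS1 had the same rank order over all arrays. SLC7A11 was followed by LOC711486 (0.99), FBXO28 (0.98) and LOC700836 (0.98), and XBP1 by RBM3 (0.99), LOC700836 (0.98) and UTP4 (0.98). HERPUD1 had HSPB8 (0.98), a small heat shock protein, LOC717950 (0.97) and RANBP9 (0.97), and the brighter EDEM1 probe set had ZNF747 (0.99), C11H12orf50 (0.98) and NFATC3 (0.97).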

How the data were processed

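The deposited table held signal intensities per probe set, 1 value for each of the 9 arrays, made with MAS5 per the submitters' processing notes, after NuGEN amplification of total RNA for 1-colour Affymetrix arrays, per the labels' protocols. The trimmed mean (outer 2% left out) was 200.01 on each array, and median signals ran from 15.9 to 23.7. MAS5 settings and genome build were not given in the sources used here. Symbols came from the array's annotation, where 24969 probe sets had 1 symbol, 361 had several and 27535 had none. The number of arrays limits the precision.

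Log2(signal + 16) was analysed for the 26383 non-control probe sets whose mean was at least the median (5.22). One model over the 9 arrays, with the group as its only term, was fitted in R 4.3.3 by limma 3.58.1 (6 residual degrees of freedom, prior 2.69). The 3 comparisons were adjusted separately by Benjamini-Hochberg. Figures used matplotlib 3.10.9 in Python 3.11.15. The fit was tested on simulated data. All 9 probe sets are reported; each gene is represented by its brightest tested probe set. Named from the lists were genes past the threshold in any comparison (at most 8 per list) and a fixed set including ATF4, DDIT3, ATF3 and TRIB3. The 6 genes, the lists and the tests were chosen with earlier results of these data known. A planned test of the 6 genes in WSD+T vs WSD is given only as a count, since the WSD arrays helped to choose them. A planned search of promoters for motifs was not run, because no promoter sequence was used here.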

Additional observations from a re-analysis of the deposited data

How the results depend on the processing

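Alternatives were pseudocounts of 1 and 64, median centring, quantile normalization, cyclic loess, no filter and a filter at the 75th percentile, a replicate block, array weights per group, a fit to the 2 groups compared, each array left out, and, chosen after seeing the data, WSD+T replicates 1 and 3 averaged. In WSD vs control, 3817 probe sets passed; the stricter filter gave 2398, the replicate block 2220, array weights 1367, the 2-group fit 913 and averaging 2544, and leaving out an array gave 1735 to 6628. The 10 calls over the lists became 6, 3, 2 and 6 with the block, weights, 2 groups and averaging, and 5 to 14 with an array left out. In WSD+T vs control, 520 passed; the block gave 3, weights 3267, 2 groups 3245 and averaging 0, and leaving out an array 0 to 1777. The 1 list call became 0 with a pseudocount of 1, median centring, the block or averaging, 6 with weights and 4 with 2 groups, and 0 to 3 with an array left out. None of the 6 genes passed there except ASNS in the 2-group fit (1 gene, adjusted p = 0.0282) and without WSD replicate 3 (0 to 1 with an array left out). In WSD+T vs WSD, 789 passed; median centring gave 300, the block 1, weights 186, 2 groups 9 and averaging 0, and leaving out an array 0 to 1548. The 2 list calls became 1 with a pseudocount of 1 or quantile normalization, 4 with a pseudocount of 64 or the stricter filter, 0 with median centring, the block, weights, 2 groups or averaging, and 0 to 5 with an array left out. The 1 call among the 6 genes, from which nothing is read since the WSD arrays helped to choose them, became 3 with a pseudocount of 64 (CHAC1, XBP1 and EDEM1), 2 with the stricter filter (XBP1 and EDEM1, since CHAC1 was below it), 0 with a pseudocount of 1, median centring, no filter, the block, weights, 2 groups or averaging, and 0 to 2 with an array left out. Scaling moved the split of calls: 1262 higher and 2555 lower in WSD vs control became 1459 and 1286 with median centring, 1501 and 1967 with quantile normalization and 1713 and 1737 with loess. In WSD+T vs WSD, 539 higher and 250 lower became 120 and 180, 303 and 324, and 287 and 381. Median centring moved the median difference of all genes in WSD vs control to 0.05, against -0.08. Reversals were the second EDEM1 probe set (0.92 in WSD vs control, -0.012 in WSD+T vs WSD) and, with an array left out, ATF3 (-0.37 to 0.82) and EIF2AK3 (-0.14 to 0.26) in WSD vs control, HERPUD1 (-0.0048 to 0.34) and EDEM1 (-0.031 to 0.098) in WSD+T vs control, and EIF2AK3 (-0.29 to 0.11) in WSD+T vs WSD. The arrays whose omission moved the count over all probe sets by more than 1.5 times were WSD+T replicates 1 and 3, WSD replicate 3 and control replicates 2 and 3 in WSD vs control, all but WSD replicate 1 in WSD+T vs control, and all 9 in WSD+T vs WSD. The causes were not tested. A second probe set was not tested for CHAC1, ASNS, HERPUD1 and SLC7A11, and CHAC1 and SLC7A11 gave no value under the stricter filter, nor CHAC1 in the 2-group fit of WSD+T vs control. Residuals of arrays with the same replicate number (WSD+T with WSD, WSD+T with control, WSD with control) correlated at -0.05, 0.19 and 0.11 (number 1), -0.30, 0.14 and -0.26 (number 2) and -0.11, -0.14 and 0.19 (number 3). With 3 arrays per group, residuals are tied within a group, so these values cannot decide whether the numbers pair the samples. The replicate block rests on a number alone.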

Other observations

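GDF15, a secreted stress cytokine of the ATF4-type list, was singled out after its values were seen, as the tested list gene with the highest WSD+T minus control difference. Its brighter probe set had 352, 264 and 285 in WSD+T SAFs, 115, 290 and 32.6 in WSD SAFs and 146, 13.0 and 68.1 in control SAFs. The WSD+T arrays did not overlap with control, and the difference was 2.10, with an adjusted p = 0.175. WSD arrays spread over both other groups.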
